A study of Homo sapiens with 3 samples.

Results

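The lysosome and proton pump genes described here are 53 human genes. They are 30 genes chosen by symbol and the 23 genes of the count tables whose symbols start with ATP6V0 or ATP6V1, out of 36601 genes in all. The 30 chosen genes hold acid hydrolases, their cofactors, lysosomal membrane proteins, the chloride-proton exchanger CLCN7 with its partner OSTM1, and the pump accessory proteins ATP6AP1 and ATP6AP2. Of the 23 ATP6V0 and ATP6V1 symbols, 22 encode subunits of the vacuolar proton pump, and ATP6V1FNB is a neighbour of ATP6V1F that shares its name only.

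The cells were induced melanocytes grown from human pluripotent stem cells and taken at day 23 (D23), day 32 (D32) and day 44 (D44) of induction, with 1 droplet RNA library per day. The labels name induced pluripotent stem cells in the titles and the embryonic stem cell line H9 in the cell line field, and each library is therefore called by its day. D32 and D44 shared an induction and a sequencing batch, whereas D23 had its own, and no day has a replicate. All 3 cultures passed through embryoid bodies in a medium with Wnt3a-conditioned medium, stem cell factor, endothelin-3 and cholera toxin. It also held dexamethasone, basic fibroblast growth factor and the phorbol ester TPA. The cells were later plated on fibronectin and passaged, in medium with serum and without TPA. Where each day falls relative to this change of medium is not stated. The cells had been frozen before capture.

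Melanosomes, the organelles in which melanin is made, belong to the family of lysosome-related organelles. The vacuolar proton pump (V-ATPase) acidifies both kinds of organelle: its V1 sector hydrolyses ATP in the cytosol, and its V0 sector carries protons through the membrane. Lysosomal genes are known targets of TFEB and TFE3, which bind the CLEAR element, and these factors belong to the same family as MITF, the master regulator of melanocytes.

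After the study's own filter D23, D32 and D44 held 3796, 6023 and 5811 cells, which together carried 49850363, 241341185 and 266709913 unique molecular identifiers (UMIs). Cells were classed by the summed UMIs of marker lists per 10000 UMIs of the cell, and no gene of the set is among those markers. Melanocyte-like cells (MITF, PMEL, MLANA, DCT, TYR, TYRP1, SLC24A5 and TRPM1) were 2369, 5517 and 5750 cells at D23, D32 and D44, or 62.4%, 91.6% and 98.95% of the cells kept. Mesenchymal-like cells (collagen genes and LUM) were 323, 250 and 18 cells, and neural-like cells (neural and neural crest genes such as CRABP1 and ZIC1) were 865, 122 and 3 cells. The 3 neural-like cells of D44 were too few to sum. The 8 melanocyte markers summed to 4176, 10378.5 and 12215 CPM (UMIs scaled to a total of 1000000) in melanocyte-like cells, 95.7 to 187 CPM in mesenchymal-like cells and 126 to 212 CPM in neural-like cells. The gate let neural-like cells hold mesenchymal genes, and the 6 mesenchymal markers summed to 2793 (D23) and 1459 CPM (D32) in them. In mesenchymal-like cells these markers summed to 7876, 3573 and 2449 CPM, and in melanocyte-like cells to 324, 130 and 59.9 CPM. CRABP1 alone made up 6108 of the 10102 CPM (D23) and 6656 of the 8120 CPM (D32) of the 9 neural markers in neural-like cells. The 7 macrophage markers, relevant because macrophages are rich in lysosomes, summed to at most 0.156 CPM in melanocyte-like cells. The 3 Schwann cell markers summed to 132, 104 and 124 CPM in melanocyte-like cells, against 5.81 to 51.5 CPM in mesenchymal-like and 5.28 and 13.1 CPM in neural-like cells. The median mitochondrial share was 4.19%, 5.04% and 4.80% in melanocyte-like cells, against 2.82%, 2.89% and 3.96% in mesenchymal-like and 3.80% and 5.21% in neural-like cells. The part of either in the results was not tested. D23 shared 16 barcodes with D32 and 9 with D44, and D32 shared 28 with D44.

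Before the levels, the promoters of some members are shown, because TCACGTGA is the core of the CLEAR element that TFEB and TFE3 bind at lysosomal genes. The shorter E-box CACGTG lies inside it. Whether these sequences regulate the members in these cells was not tested. Of the 53 members, 37 had a RefSeq window (250 bases before to 50 after a gene start, GRCh38.p14, matched by symbol), and where a gene had several starts any window counted. TCACGTGA, which reads the same on both strands, was present for 6 of the 37 members (16.2%) and for 321 of all 27305 genes with a window (1.18%). CACGTG was present for 12 members (32.4%) and 2396 genes (8.77%). TCATGTG, a site known for MITF, was searched on both strands and was present for 6 members (16.2%) and 981 genes (3.59%). A match is a description of the letters and shows no binding. Since the CLEAR element is known from lysosomal genes, its larger share among lysosome genes is no new result.

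The sequences below run 5′ to 3′ on the strand of the gene, with TCACGTGA or CACGTG in capitals. MCOLN1 and LAMP1 are given as the stretch up to the gene start and the rest as single sites with 11 bases on either side (the first capital of CTSA ends a neighbouring CACGTG). All 6 members with TCACGTGA are shown, and all but LAMP1 and GAA among them were higher in melanocyte-like than in mesenchymal-like cells. Of the members with CACGTG alone, only CLCN7 and CTSD are shown, which were both higher. Not shown are ATP6V0B and CD63, which were higher too, and ATP6V0E2 and NEU1, which did not pass as higher.
MCOLN1: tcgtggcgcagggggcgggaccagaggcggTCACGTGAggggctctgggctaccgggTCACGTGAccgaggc
LAMP1: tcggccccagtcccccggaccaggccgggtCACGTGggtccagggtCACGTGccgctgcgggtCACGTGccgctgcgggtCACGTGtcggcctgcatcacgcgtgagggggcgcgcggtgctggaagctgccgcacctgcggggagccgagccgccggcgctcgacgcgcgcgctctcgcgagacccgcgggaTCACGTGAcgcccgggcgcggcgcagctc
ATP6V0D1: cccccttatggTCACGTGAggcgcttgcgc
ATP6V1G1: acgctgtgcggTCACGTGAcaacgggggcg
CTSA: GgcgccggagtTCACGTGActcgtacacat
CLCN7 site 1: ccgtcgctcatCACGTGgccccgtcgcg
CLCN7 site 2: ccgtcgcgcgtCACGTGgccgccggcgc
CTSD: ccggccgcgccCACGTGaccggtccggg
GAA site 1: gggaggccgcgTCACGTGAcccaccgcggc
GAA site 2: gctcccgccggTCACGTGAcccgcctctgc

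On the plus strand these lie at chr19:7522552-7522623 (MCOLN1), chr13:113297017-113297238 (LAMP1), chr9:114587699-114587728 (ATP6V1G1), chr20:45891298-45891327 (CTSA), chr17:80101493-80101522 and chr17:80101538-80101567 (GAA). On the minus strand they lie at chr16:67481199-67481228 (ATP6V0D1), chr16:1475059-1475086 and chr16:1475039-1475066 (CLCN7) and chr11:1763958-1763985 (CTSD). The sites of ATP6V1G1, CTSA, CLCN7, CTSD and the second of GAA overlap the gene as GENCODE annotates it, where transcripts with other starts are included. In MCOLN1, the calcium channel mucolipin 1 of the lysosomal membrane, the cores began 42 and 15 bases before the start. LAMP1, a major glycoprotein of the lysosomal membrane, had TCACGTGA at 29 and 2 bases before its start and 6 copies of CACGTG in all, with 1 of each reaching past the start. Among the 15 members with a window that were higher in melanocyte-like than in mesenchymal-like cells, 4 held TCACGTGA and 8 held CACGTG. Among the other 22, 2 held TCACGTGA and 4 held CACGTG.

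As a set, the lysosome and proton pump genes took up a larger part of the transcriptome of melanocyte-like cells than of the other classes in each library. The 53 members summed to 9099 (D23), 13172 (D32) and 13745 CPM (D44) in melanocyte-like cells, against 5166, 6764 and 10331 CPM in mesenchymal-like cells. In neural-like cells the members summed to 6242 CPM at D23 and 10262 CPM at D32. A large part of each sum was CD63 alone, at 2025, 3915 and 4638 CPM in melanocyte-like cells. CD63 was at 1019, 1935 and 3371 CPM in mesenchymal-like cells and at 993 and 2574 CPM in neural-like cells. The 23 pump genes alone summed to 3788, 4624 and 4186 CPM in melanocyte-like cells, against 2047, 2315 and 2779 CPM in mesenchymal-like cells and 2649 and 3615 CPM in neural-like cells. CPM are shares of a cell's UMIs, so a larger share and more RNA per cell cannot be told apart.

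**Figure D1:**
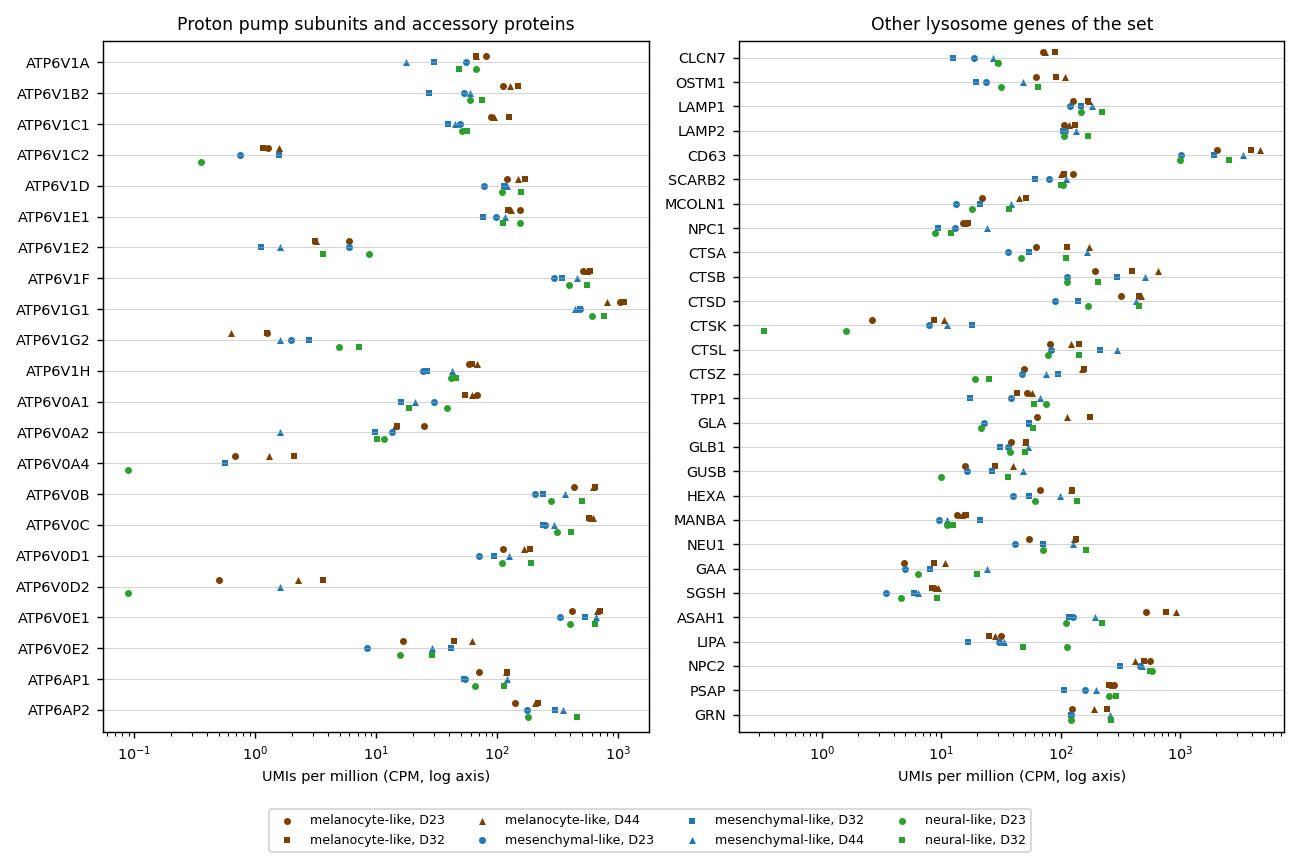
CPM (log axis) of the 50 members tested, with 1 point for each library (marker shape) and cell class (colour); sums of 0 UMIs have no point. Melanocyte-like cells lie to the right for most pump subunits, for example ATP6V0C at 572 to 615 CPM against 237 to 296 CPM in mesenchymal-like cells, while LAMP1 and LAMP2 overlap.

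To ask which members differed between cell classes, UMIs were summed per library and class, and the quasi-likelihood test of edgeR was run on the 8 sums with the library as a block, with p-values adjusted over all 14996 genes tested (Benjamini-Hochberg, threshold 0.05). All adjusted p-values between classes below come from this fit, and folds are on the log2 scale with their standard errors (SE). ATP6V1B1, ATP6V1G3 and ATP6V1FNB had too few UMIs to be tested, leaving 50 members. In simulated data with known changes, log2 folds of 1 passed in 35% of cases over mesenchymal-like and 12% over neural-like cells. Log2 folds of 2 passed in 100% and 99% of cases, so a smaller difference that did not pass may have been missed. The simulation gave every gene the same spread (dispersion 0.0672) and no library effect. Members with a smaller spread could pass at lower folds, such as ATP6V1D over mesenchymal-like cells (log2 fold 0.57, SE 0.13).

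In melanocyte-like over mesenchymal-like cells, 23 of the 50 members rose and 0 fell, whereas of all genes tested 9.46% rose and 10.5% fell. The median log2 fold was 0.67 over the members and 0.09 over all genes, and 45 of the 50 members were above 0. At an unadjusted p under 0.05, 3 members were lower in edgeR (ATP6AP2, CTSL and ATP6V1G2), and DESeq2 called 1 (ATP6AP2). The rise covered 12 of the 20 pump subunits tested (8 of 11 in V1 and 4 of 9 in V0), both parts of the chloride exchanger, 2 of 6 membrane proteins, 3 of 7 proteases, 2 of 8 glycan enzymes and 2 of the 5 lipid proteins and GRN. The pump accessory proteins ATP6AP1 and ATP6AP2 did not pass.

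Among members that passed, the largest fold over mesenchymal-like cells was that of ASAH1 (acid ceramidase, ENSG00000104763, chromosome 8), which cleaves ceramide into sphingosine and a fatty acid. ASAH1 had 515 (D23), 756 (D32) and 933 CPM (D44) in melanocyte-like cells, against 126, 117 and 195 CPM in mesenchymal-like cells and 111 and 222 CPM in neural-like cells. Every melanocyte-like sum was above every sum of the other classes. ASAH1 rose by a log2 fold of 2.39 (SE 0.21, adjusted p = 0.000937) over mesenchymal-like cells and of 2.14 (SE 0.25, adjusted p = 0.00232) over neural-like cells.

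CLCN7 and OSTM1 together form the exchanger that moves chloride into the lysosome against protons, and both rose. CLCN7 (ENSG00000103249, chr16:1444934-1475077, minus strand) had 71.8, 89.4 and 74.4 CPM in melanocyte-like cells, against 18.9, 12.6 and 27.4 CPM in mesenchymal-like cells and 29.7 and 29.8 CPM in neural-like cells. Its groups did not overlap, and its log2 fold was 2.21 (SE 0.25, adjusted p = 0.00221) over mesenchymal-like cells and 1.49 (SE 0.28, adjusted p = 0.0120) over neural-like cells. OSTM1 had 61.7, 91.2 and 109 CPM in melanocyte-like cells, against 23.8, 19.7 and 48.3 CPM in mesenchymal-like cells, with a log2 fold of 1.67 (SE 0.25, adjusted p = 0.00567). Over neural-like cells, at 31.7 and 64.2 CPM, OSTM1 did not pass (log2 fold 0.81, SE 0.28, adjusted p = 0.0840).

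Within the pump, ATP6V0A1 (an isoform of the a subunit, which forms the proton path with the c ring) had 67.5, 53.8 and 62.3 CPM in melanocyte-like cells, against 29.8, 16.0 and 20.9 CPM in mesenchymal-like cells and 38.5 and 18.7 CPM in neural-like cells. No melanocyte-like sum overlapped the others, and the log2 fold was 1.56 (SE 0.22, adjusted p = 0.00505) over mesenchymal-like and 1.32 (SE 0.26, adjusted p = 0.0144) over neural-like cells. ATP6V1B2, the B subunit of the catalytic head, had 112, 147 and 127 CPM in melanocyte-like cells, against 52.6, 27.5 and 59.5 CPM in mesenchymal-like cells (log2 fold 1.61, SE 0.29, adjusted p = 0.0111). ATP6V1B2 was also above the 59.0 and 74.7 CPM of neural-like cells without passing the test (log2 fold 1.05, adjusted p = 0.0633). ATP6V1C1, a stalk subunit that controls the assembly of V1 on V0, had 88.9, 126 and 93.3 CPM in melanocyte-like cells, against 48.9, 39.1 and 45.0 CPM in mesenchymal-like and 51.4 and 56.4 CPM in neural-like cells. It rose over both (log2 fold 1.29, SE 0.20, adjusted p = 0.00698 and log2 fold 1.12, SE 0.23, adjusted p = 0.0181).

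The other pump subunits that rose over mesenchymal-like cells did so by log2 folds between 0.57 (ATP6V1D) and 1.25 (ATP6V0C). ATP6V0C, the c subunit of the rotating ring, had 572, 574 and 615 CPM in melanocyte-like cells, against 250, 237 and 296 CPM in mesenchymal-like and 313 and 402 CPM in neural-like cells, and it rose over both (log2 fold 1.25, SE 0.13, adjusted p = 0.00155 and log2 fold 0.83, SE 0.15, adjusted p = 0.0111). ATP6V1G1, a stalk subunit, rose over both as well (log2 fold 1.13, SE 0.12, adjusted p = 0.00177 and log2 fold 0.79, SE 0.14, adjusted p = 0.0110). ATP6V1H, ATP6V1A, ATP6V0B, ATP6V0D1, ATP6V1F and ATP6V1E1 rose over mesenchymal-like cells and did not pass over neural-like cells, and whether the 2 comparisons differ was not tested.

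Among the hydrolases, GLA, the alpha-galactosidase that is deficient in Fabry disease (chrX:101393273-101408012, minus strand), had 63.6, 178 and 113 CPM in melanocyte-like cells, against 22.8, 54.2 and 54.7 CPM in mesenchymal-like and 21.5 and 59.0 CPM in neural-like cells. The groups did not overlap, and GLA rose over both (log2 fold 1.51, SE 0.15, adjusted p = 0.00156 and log2 fold 1.67, SE 0.18, adjusted p = 0.00186). CTSD, the aspartic protease cathepsin D, had 318, 454 and 469 CPM in melanocyte-like cells, against 89.0, 140 and 426 CPM in mesenchymal-like cells (log2 fold 1.32, SE 0.31, adjusted p = 0.0283). In this gene the groups overlapped through the D44 mesenchymal-like cells, and the neural-like cells of D32 were at 455 CPM. HEXA, CTSA, CTSB, PSAP, MCOLN1 and CD63 also rose over mesenchymal-like cells, by log2 folds between 0.58 (CTSB, adjusted p = 0.0489) and 0.92 (PSAP, adjusted p = 0.0130).

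LAMP1 and LAMP2, widely used marker proteins of lysosomes, had overlapping levels in all classes. LAMP1 had 127, 169 and 172 CPM in melanocyte-like cells, against 119, 148 and 182 CPM in mesenchymal-like and 147 and 223 CPM in neural-like cells, with log2 folds of 0.14 (SE 0.13) and -0.18 (SE 0.15). LAMP2 had 107, 132 and 118 CPM in melanocyte-like cells, against 108, 105 and 134 CPM in mesenchymal-like and 107 and 170 CPM in neural-like cells. Neither passed in either comparison (adjusted p from 0.428 to 0.821). CTSL, the cysteine protease cathepsin L, was below its mesenchymal-like levels without passing: 81.0, 141 and 123 CPM in melanocyte-like cells, against 83.1, 212 and 299 CPM (log2 fold -0.56, SE 0.21, adjusted p = 0.109). It did pass as lower without D23 (log2 fold -0.88, adjusted p = 0.0206) and when genes of low counts were retained (adjusted p = 0.0414).

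**Figure D2:**
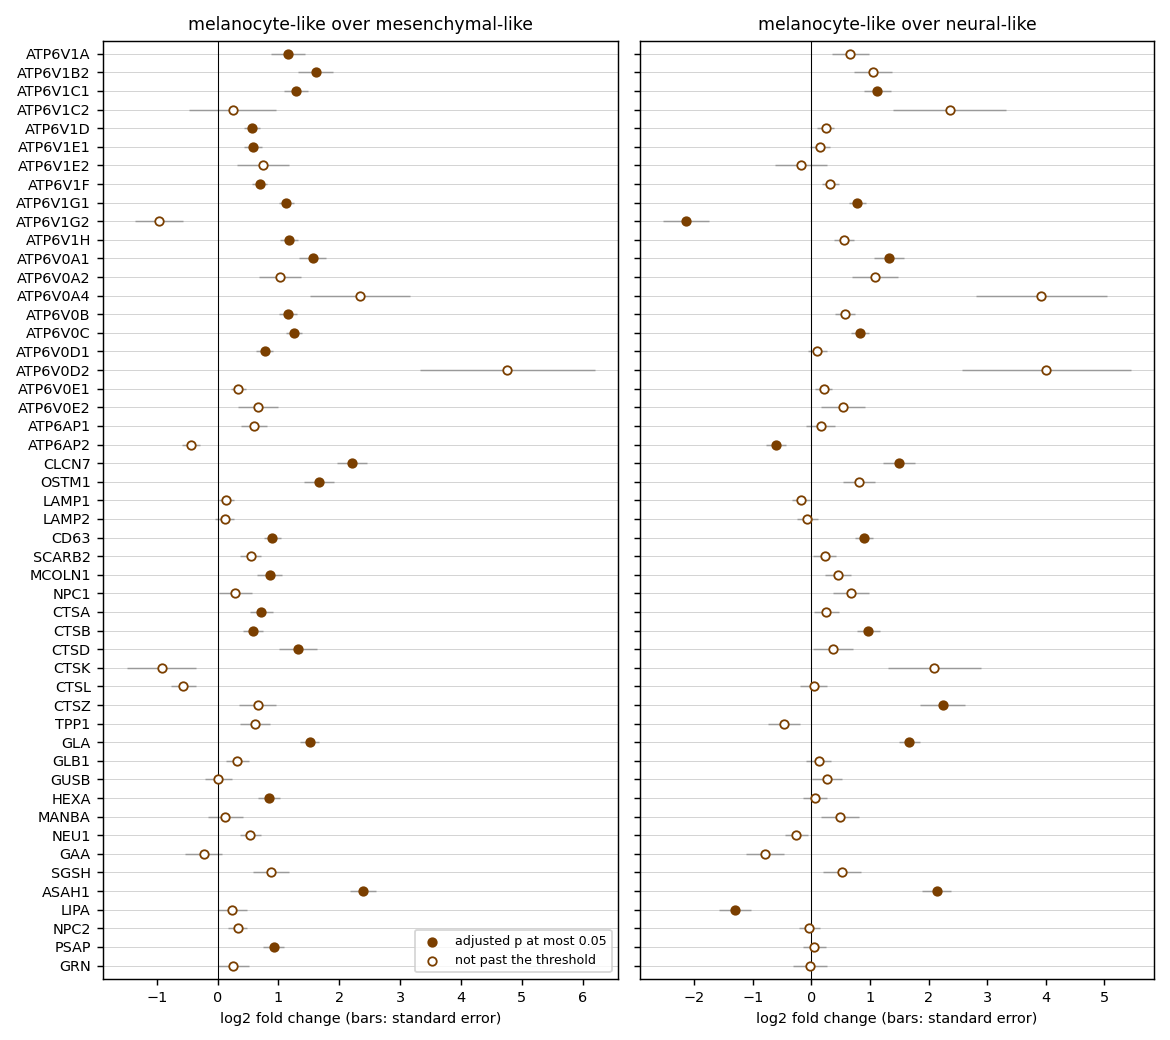
Log2 fold change (points) with its standard error (bars) of the 50 tested members, in melanocyte-like over mesenchymal-like cells (left) and over neural-like cells (right); filled points had an adjusted p of at most 0.05 in edgeR's quasi-likelihood test. Filled points lie to the right of 0 on the left side (23 members), and on the right side 10 lie above and 3 below 0.

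Over neural-like cells, 10 of the 50 members rose and 3 fell, against 8.74% and 12.1% of all genes tested. The median log2 fold was 0.41 over the members and 0.09 over all genes. Of the 10 that rose, 9 had also risen over mesenchymal-like cells: ASAH1, ATP6V0A1, ATP6V0C, ATP6V1C1, ATP6V1G1, CD63, CLCN7, CTSB and GLA. Both comparisons use the same melanocyte-like sums. The tenth was CTSZ (cathepsin Z, a carboxypeptidase; chr20:58985686-59008238, minus strand), with 49.4, 156 and 150 CPM in melanocyte-like cells, against 19.1 and 25.2 CPM in neural-like cells (log2 fold 2.24, SE 0.39, adjusted p = 0.00949). Against mesenchymal-like cells, at 47.6, 96.0 and 75.6 CPM, CTSZ did not pass (log2 fold 0.66, adjusted p = 0.186).

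The 3 members that fell were ATP6V1G2, LIPA and ATP6AP2. ATP6V1G2, the G isoform known from neurons, had 1.25, 1.25 and 0.632 CPM in melanocyte-like cells, against 4.92 and 7.21 CPM in neural-like cells (log2 fold -2.13, SE 0.39, adjusted p = 0.0120), and it rests on 55 and 22 UMIs in the neural-like cells and shares its locus with a readthrough gene. LIPA, the lysosomal acid lipase that breaks down cholesteryl esters, had 31.7, 25.3 and 28.1 CPM in melanocyte-like cells, against 113 and 48.2 CPM in neural-like cells (log2 fold -1.31, SE 0.27, adjusted p = 0.0181). ATP6AP2, a pump accessory protein also known as the prorenin receptor, had 139, 218 and 206 CPM in melanocyte-like cells, against 179 and 451 CPM in neural-like cells (log2 fold -0.60, SE 0.17, adjusted p = 0.0472). The ranges of ATP6AP2 overlapped between libraries, although in D23 and in D32 the melanocyte-like cells were lower.

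The remaining members tested passed in neither comparison. Among them, ATP6V0A2, another a isoform, had log2 folds of 1.02 (adjusted p = 0.0885) over mesenchymal-like and 1.09 (adjusted p = 0.0967) over neural-like cells, and SGSH, a sulfatase of heparan sulfate breakdown, 0.87 and 0.53. CTSK, the cysteine protease cathepsin K, had 2.66, 8.66 and 10.6 CPM in melanocyte-like cells, against 7.94, 18.2 and 11.3 CPM in mesenchymal-like and 1.61 and 0.328 CPM in neural-like cells. TPP1, NEU1, SCARB2, ATP6V0E1, ATP6V0E2, ATP6V1E2, GLB1, NPC1, NPC2, GRN, MANBA, GUSB and GAA lay between log2 folds of -0.23 (GAA) and 0.74 (ATP6V1E2) over mesenchymal-like cells, and between -0.79 (GAA) and 0.67 (NPC1) over neural-like cells.

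These counts depend on the libraries. Over mesenchymal-like cells 17, 15 and 23 members rose without D23, D32 and D44, against 6.51%, 4.40% and 6.80% of all genes. Over neural-like cells 8, 6 and 12 members rose, against 4.21%, 3.85% and 8.87% of all genes. Without D23 or without D32 the calls of CTSA, CTSB, HEXA, MCOLN1, ATP6V0D1, ATP6V1D, ATP6V1E1 and ATP6V1F over mesenchymal-like cells were lost, that of PSAP without D32, and that of CTSB also without D44. Over neural-like cells ATP6V1G2, ATP6V1G1 and ATP6AP2 were lost without D23 or without D32, with ATP6AP2 lost without D44 too. CD63, LIPA and ATP6V0C were lost without D23, and CTSB, ATP6V0A1 and ATP6V1C1 without D32. Without the library block, 10 members rose over mesenchymal-like cells, against 4.33% of all genes. Over neural-like cells 5 rose and 1 fell without it, against 4.34% and 9.68% of all genes. Over mesenchymal-like cells 9 calls were kept under all 15 alternatives: ASAH1, CLCN7, OSTM1, ATP6V0A1, ATP6V0C, ATP6V1B2, ATP6V1C1, ATP6V1G1 and ATP6V1H. Over neural-like cells 2 were, ASAH1 and CTSZ.

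The D44 mesenchymal-like cells were only 18 cells, with 621554 UMIs, and none of them lay in a mesenchymal-like cluster when that library was clustered on its own. Their member sum lay between the other mesenchymal-like sums and that of D44 melanocyte-like cells. PMEL, a melanosome protein, was at 93.3 CPM in them, against 51.6 and 53.6 CPM in the mesenchymal-like cells of D23 and D32. In melanocyte-like cells PMEL itself differed between libraries, at 1752 (D23), 4955 (D32) and 4884 CPM (D44). Whether the 18 cells hold more melanocyte RNA than other mesenchymal-like cells was not tested. With the D44 mesenchymal-like cells left out, 23 members still rose over mesenchymal-like cells, against 6.75% of all genes. Over neural-like cells 12 members rose and 2 fell, against 9.28% and 11.7% of all genes. Within single libraries, the ratio of melanocyte-like over mesenchymal-like CPM, over genes of the test with a UMI in the mesenchymal-like cells, had a 95% counting interval above 1 for 33 of 48 members in D23, 40 of 49 in D32 and 20 of 48 in D44, against 25.8%, 32.8% and 13.5% of all such genes. It was below 1 for 2, 5 and 5 members, against 21.9%, 32.4% and 19.7% of genes. Over neural-like cells it was above 1 for 30 of 50 members in D23 and 22 of 47 in D32, against 33.0% and 20.8% of genes, and below 1 for 7 and 12, against 35.1% and 33.0%. Intervals here and below cover counting error only, since each library stands alone.

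Pump subunits that come as several isoforms were compared as shares of the summed UMIs of the subunit. For 6 subunits 1 isoform held over 90% in every sum: ATP6V1B2, ATP6V1C1, ATP6V1E1, ATP6V1G1, ATP6V0D1 and ATP6V0E1. ATP6V1G2 took 0.122%, 0.112% and 0.0787% of the G subunit in melanocyte-like cells of the 3 days, against 0.809% and 0.943% in neural-like cells. ATP6V0E2 held 3.87%, 5.86% and 8.57% of the e subunit in melanocyte-like cells at D23, D32 and D44. In mesenchymal-like cells it held 2.51%, 7.32% and 4.28%, and in neural-like cells 3.81% (D23) and 4.28% (D32). Shares of UMIs compare isoforms only as far as each is captured alike, and gene length and annotation can shift them.

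The a subunit, which steers the pump to its organelle, was the one with mixed isoforms. ATP6V0A1 held 61.3%, 57.1% and 62.3% of its UMIs in melanocyte-like cells, against 54.5%, 36.1% and 34.2% in mesenchymal-like and 66.2% and 41.9% in neural-like cells. TCIRG1, the a3 isoform known from osteoclasts and not a member of the set, held 15.5%, 25.1% and 22.1% in melanocyte-like cells, against 20.9%, 40.7% and 63.2% in mesenchymal-like and 13.7% and 35.3% in neural-like cells. At D32 the 95% exact binomial interval of the TCIRG1 share was 24.5% to 25.7% in melanocyte-like cells, against 35.8% to 45.7% in mesenchymal-like and 27.3% to 43.9% in neural-like cells. The D44 mesenchymal-like share rests on 38 UMIs. As a level, TCIRG1 had 17.1, 23.6 and 22.1 CPM in melanocyte-like cells. It had 11.4, 18.0 and 38.6 CPM in mesenchymal-like and 7.96 and 15.7 CPM in neural-like cells. At D32 the larger TCIRG1 share of the other classes thus went with a lower TCIRG1 level than in melanocyte-like cells.

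**Figure D3:**
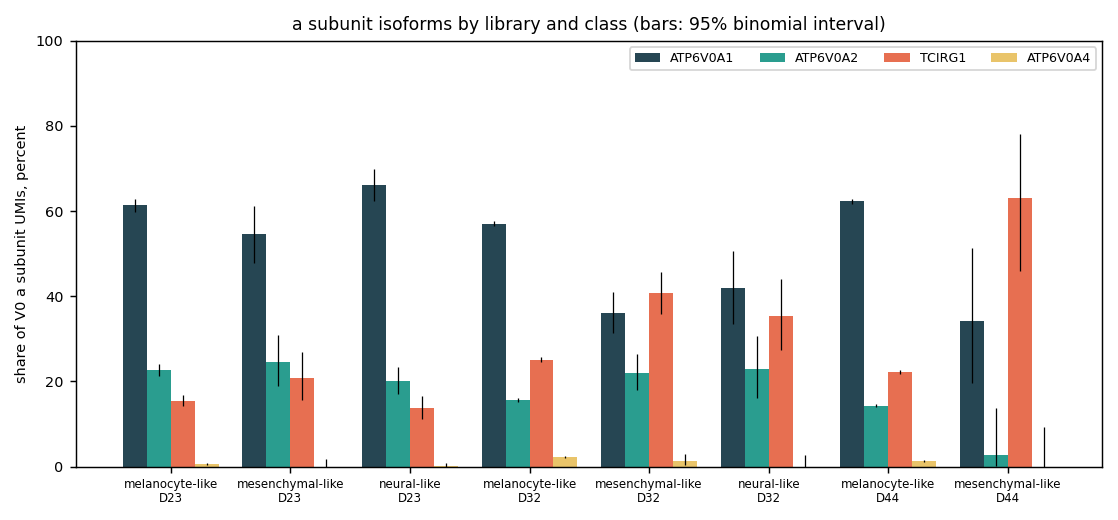
Share of the a subunit UMIs (percent) held by ATP6V0A1, ATP6V0A2, TCIRG1 and ATP6V0A4 in each library and cell class, with 95% exact binomial intervals. ATP6V0A1 holds 57.1% to 62.3% in melanocyte-like cells, and TCIRG1 is at 40.7% in mesenchymal-like cells at D32 against 25.1% in melanocyte-like cells.

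The isoforms ATP6V0A4 and ATP6V0D2, known from kidney intercalated cells and, for ATP6V0D2, from osteoclasts, were scarce, and the few UMIs of the other classes come from far smaller sums. ATP6V0D2 had 16, 802 and 601 UMIs (0.500, 3.61 and 2.28 CPM) in melanocyte-like cells of the 3 days, against 0, 0 and 1 UMIs in mesenchymal-like cells and 1 and 0 UMIs in neural-like cells. With 3 UMIs per sum as the limit that a count of 0 allows, ATP6V0D2 at D32 was at least 10.8-fold higher than in mesenchymal-like and at least 3.67-fold higher than in neural-like cells. At D44 its level was 2.28 CPM in melanocyte-like cells, against 1.61 CPM from 1 UMI in mesenchymal-like cells, a ratio of 1.41 with a counting interval of 0.253 to 56.0. At D23 its melanocyte-like level was below that limit in mesenchymal-like cells, so that no fold is given. ATP6V0A4 had 22, 467 and 345 UMIs (0.687, 2.10 and 1.31 CPM) in melanocyte-like cells, against 0, 5 and 0 UMIs in mesenchymal-like and 1 and 0 UMIs in neural-like cells. Neither passed the test over all genes (adjusted p from 0.0503 to 0.0980). ATP6V1B1 had 6, 12 and 15 UMIs in melanocyte-like cells and 0 in every other sum, which is not detectable as a difference at this depth.

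A wider list of 52 further lysosome genes was counted in the same fit. The list was chosen with earlier results of these data known, so it is no independent check of the members. Over mesenchymal-like cells 20 rose and 3 fell, against 9.46% and 10.5% of all genes tested. Over neural-like cells 9 rose and 2 fell, against 8.74% and 12.1% of all genes. The 52 genes had median log2 folds of 0.43 and 0.27, against 0.09 over all genes in either comparison. Among them GNPTAB, the enzyme that starts the mannose 6-phosphate tag of lysosomal hydrolases, had 74.2, 87.7 and 95.7 CPM in melanocyte-like cells, against 15.1, 15.9 and 24.1 CPM in mesenchymal-like and 13.9 and 12.8 CPM in neural-like cells (log2 fold 2.34 and 2.69, SE 0.18 and 0.21). SORT1, a sorting receptor, and TPCN2, a cation channel of melanosomes and lysosomes, also rose over both. IDS and IDUA, which break down dermatan and heparan sulfate, fell in both comparisons (IDS by log2 folds of -1.14 and -1.59, IDUA of -1.22 and -1.49). Of the regulators, MITF rose by a log2 fold of 4.56 over mesenchymal-like and 5.67 over neural-like cells, but it is one of the markers that chose the cells. TFEB (2.53 to 3.46 CPM in melanocyte-like cells, against 1.01 to 9.65 CPM in mesenchymal-like cells) and TFE3 (9.93 to 13.2 CPM, against 15.4 to 16.5 CPM) did not pass.

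To see whether the genes follow the pigment program among melanocyte-like cells themselves, each cell was thinned to 10000 UMIs of genes other than 8 pigment genes (PMEL, MLANA, DCT, TYR, TYRP1, SLC24A5, SLC45A2 and OCA2), and cells were ranked by their pigment UMIs into 5 groups of 20% each. Shallower cells were left out, so that 1890 of 2369, 5510 of 5517 and 5746 of 5750 cells were used at D23, D32 and D44. Cells of 1 library are not replicates, so no test was made. Median UMIs per cell were alike in the highest and the lowest group (13456 and 14031 at D23, 35260.5 and 35850 at D32, 42288 and 43241 at D44).

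Members were higher in the cells with more pigment RNA. In the top over the bottom 20%, 19 of 38 members with at least 20 CPM were past 1.2-fold higher at D23, 16 of 39 at D32 and 24 of 39 at D44, against 11.3%, 10.5% and 15.2% of all genes at that level. Lower by that fold were 0, 0 and 2 members, against 18.8%, 21.3% and 24.4% of all genes. The median ratio was 1.196, 1.17 and 1.22 over members and 0.967, 0.960 and 0.962 over all genes. The member sum was 9736 CPM in the top and 8392 CPM in the bottom 20% at D23, 14736 and 12434 CPM at D32, and 15926 and 13162 CPM at D44. Spearman correlations over cells were weak: their median was 0.0628, 0.0590 and 0.0881 over members and -0.00887, -0.00991 and -0.00890 over all genes. They exceeded 0.1 for 6, 11 and 18 members, against 2.89%, 4.30% and 6.91% of all genes. With cells split at the median instead, 9, 9 and 15 members were past 1.2-fold higher, against 4.61%, 4.33% and 7.33% of all genes. Without PMEL in the pigment sum 15, 8 and 19 were, against 11.4%, 8.28% and 14.2% of all genes.

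ASAH1 had the highest geometric mean of the 3 ratios (1.71), and the members below follow in that order. At D44 it had 1329 CPM in the top and 580 CPM in the bottom 20% at D44, a ratio of 2.29 (95% counting interval 2.23 to 2.36; Spearman 0.577). At D23 and D32 the ratios of ASAH1 were 1.42 and 1.53, below those of 5 other members with at least 20 CPM on each day. ATP6AP1, an accessory protein of pump assembly, came next, with 171 and 96.0 CPM at D44 (ratio 1.78) and ratios of 1.40 at D23 and 1.72 at D32. CTSL followed at 1.69, 1.59 and 1.45 (D23, D32 and D44), CTSD at 1.47, 1.61 and 1.64, GLA at 1.68, 1.55 and 1.35, and CLCN7 at 1.45, 1.30 and 1.75. Thus CTSL and ATP6AP1, which did not pass between the classes, were among the 6 members with the highest geometric mean of the 37 with at least 20 CPM in all 3 libraries.

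CTSB, the cysteine protease cathepsin B, ran the other way at D44. It had 472 CPM in the top and 1116 CPM in the bottom 20% (ratio 0.423, 95% counting interval 0.410 to 0.436; Spearman -0.181), against ratios of 0.906 at D32 and 1.18 at D23. SCARB2, a receptor that carries glucocerebrosidase to lysosomes, had ratios of 1.12, 1.02 and 0.764 at D23, D32 and D44. LAMP1 had 1.06, 0.848 and 0.956, and ATP6V0B, a pump subunit of the c ring, 1.09, 0.977 and 0.952. Pump subunits were mostly in between, with ATP6V0A1 and ATP6V1C1 the highest.

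**Figure D4:**
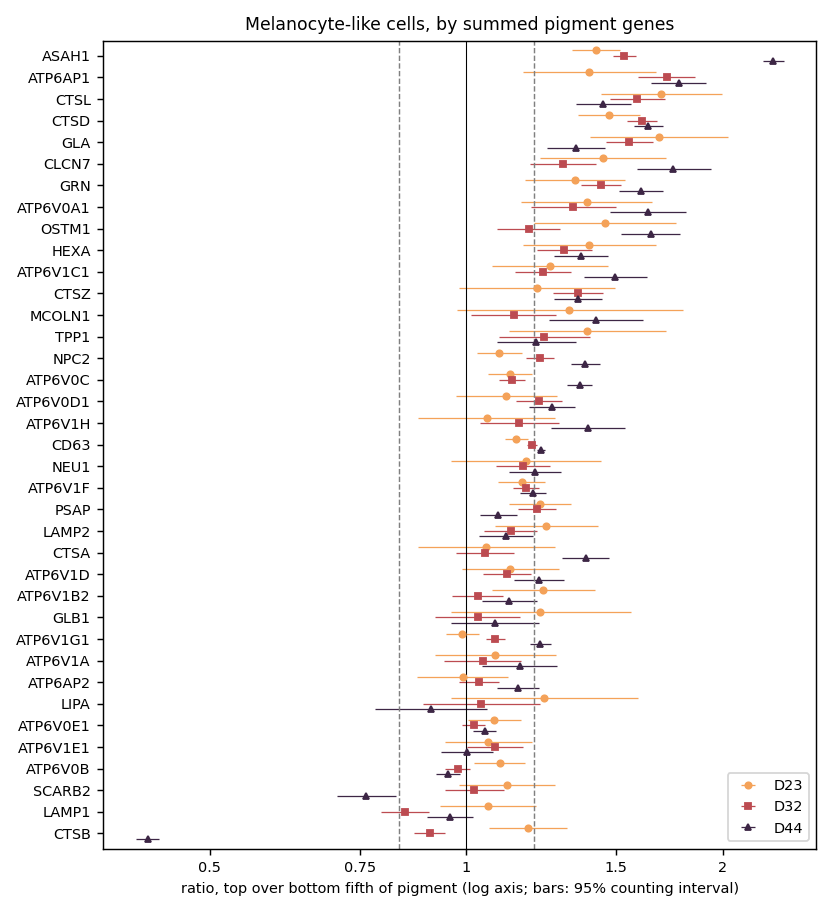
Ratio of CPM in the top over the bottom 20% of melanocyte-like cells ranked by summed pigment genes (log axis), for the 37 members with at least 20 CPM in all 3 libraries; bars are 95% counting intervals and dashed lines mark 1.2-fold either way. ASAH1 at D44 (2.29) lies far right and CTSB at D44 (0.423) far left, while most members lie just above 1.

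Other measures moved with pigment level too. The proliferation gene MKI67 was lower in the top 20% in each library (52.1 CPM in the top and 181 CPM in the bottom 20% at D44), and the median mitochondrial share of UMIs was slightly higher (5.06% and 4.60% at D44). Among cells with no UMI of MKI67 or TOP2A, a choice made after seeing the data, 13, 16 and 16 members were past 1.2-fold higher at D23, D32 and D44, against 12.8%, 13.0% and 17.2% of all genes. Lower by that fold were 0, 1 and 3 members, against 20.2%, 21.6% and 23.3% of all genes. TFEB had 5.82, 7.08 and 5.22 CPM in the top 20% of cells of the 3 days, against 2.65, 1.63 and 0.957 CPM in the bottom 20%, and MITF had 345, 428 and 443 CPM, against 349, 301 and 244 CPM. Their part in the relation was not tested. All these TFEB levels lie below the 20 CPM asked of members for the ratios above, and they rest on few UMIs of thinned cells.

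Between days only levels can be given, since each day has 1 library. From D32 to D44, within 1 induction and batch, melanocyte-like cells differed little: 2 of 39 members with at least 20 CPM were past 1.5-fold higher and 1 lower at D44, against 1.77% and 1.74% of 5695 genes. CTSB was 648 CPM at D44 and 394 CPM at D32, a ratio of 1.64 (95% counting interval 1.63 to 1.66). CTSA, the protective protein that stabilises beta-galactosidase and neuraminidase, was 172 CPM at D44 and 112 CPM at D32 (ratio 1.53, 1.51 to 1.56). GLA was 113 CPM at D44 and 178 CPM at D32 (ratio 0.638, 0.628 to 0.647). The median ratio of the members was 0.979, and 17 of the 39 were above 1.

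**Figure D5:**
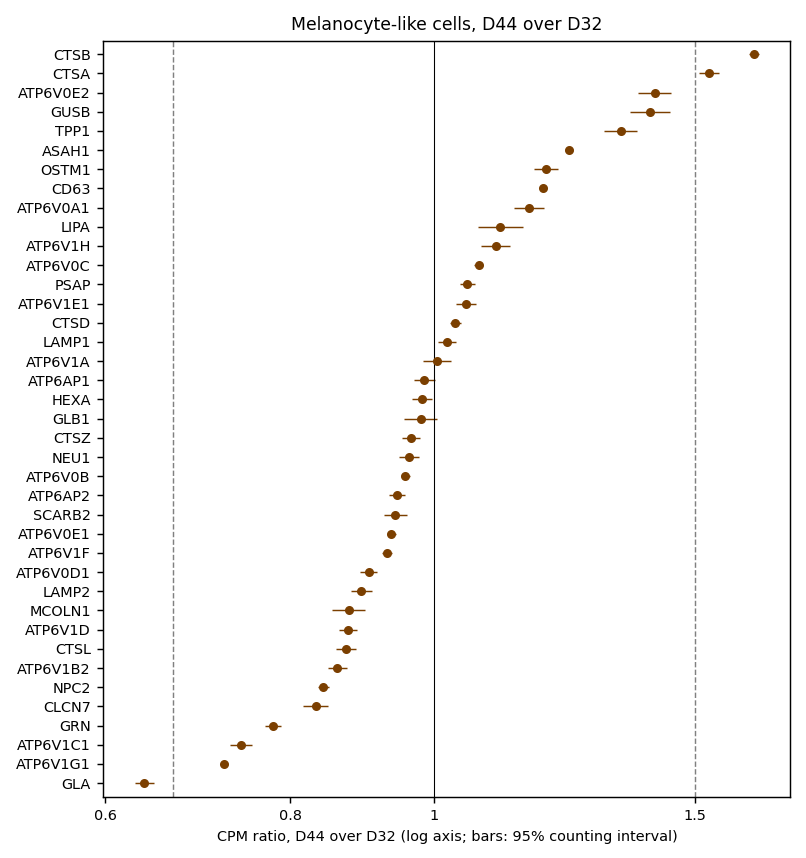
Ratio of CPM at D44 over D32 in melanocyte-like cells (log axis) for the 39 members with at least 20 CPM; bars are 95% counting intervals and dashed lines mark 1.5-fold either way. CTSB (1.64) and CTSA (1.53) lie beyond the right line and GLA (0.638) beyond the left one.

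D32 over D23 gave 17 of 39 members past 1.5-fold higher and 0 lower, against 16.0% and 18.5% of 5992 genes. CTSZ (156 CPM at D32, 49.4 CPM at D23) and GLA (178 and 63.6 CPM) had the largest ratios among them, 3.15 and 2.80, and CD63, a tetraspanin of lysosomes and melanosomes, was 3915 CPM at D32 and 2025 CPM at D23. Day, induction, batch, depth and any change of medium between these days cannot be told apart in this pair. The median UMIs per melanocyte-like cell were 12787 at D23 and 36621 at D32.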

How the data were processed

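The authors deposited unnormalized UMI counts, which Cell Ranger 6.1.2 produced against GRCh38 per the file headers and labels. The annotation release and the end of the transcript that was captured are not given in the sources used here. Cells passed the limits of the study: in D23 1000 to 7000 genes with 500 to 50000 UMIs, in the later libraries 3000 to 9000 genes with 500 to 100000 UMIs, limits excluded, and at most 10% mitochondrial UMIs. A class needed at least 10 UMIs of its list per 10000 and under 10 of the others, except that neural-like cells could hold mesenchymal genes, and 239, 134 and 40 cells stayed outside. This limit was set after the marker levels were seen. Scrublet scores, cut at the expected share because its automatic threshold marked too few cells, marked 95, 250 and 221 doublets, which were kept except under 1 alternative.

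Sums of at least 10 cells were compared with edgeR 4.0.16 (TMM, filterByExpr, limma 3.58.1, R 4.3.3), with DESeq2 1.42.0 as an alternative. The library pairs the sums because its classes were captured in 1 run, and only 3 residual degrees of freedom remain. The 3 libraries are not stated to be replicates, and D32 and D44 come from 1 induction. The block takes out the level of each library, so p-values measure the spread of class differences between libraries. Levels, ratios and shares used Python 3.11.15, numpy 2.4.6, scipy 1.17.1, pandas 2.3.3 and scanpy 1.11.5, with exact Poisson and binomial 95% intervals, and the scripts were tested on simulated data. A count of 0 was read as at most 3 UMIs, from 0.0114 to 4.83 CPM over the sums. Pigment cells were thinned on UMIs of non-pigment genes, since the share of pigment UMIs would otherwise lower all other genes. Promoters came from RefSeq (GRCh38.p14) and gene positions from GENCODE on GRCh38.

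Named in full were, per class comparison, the 8 members with the largest fold past the threshold and every one that fell, members past 1.5-fold at D44 over D32, the 6 highest and 4 lowest geometric mean ratios against pigment, and pump subunits with isoforms. Others were named after their values were seen. The members and lists were chosen with earlier results of these data known.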

Additional observations from a re-analysis of the deposited data

Results flagged for a closer look

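Some members ran in opposite directions in different libraries, with 95% counting intervals on both sides of 1. The difference between libraries was not tested, and with 1 library per day it rests on counting error alone. NPC2, a cholesterol-binding protein, was higher in melanocyte-like than in mesenchymal-like cells at D23 (ratio 1.215) and D32 (1.58) and lower at D44 (0.876). GRN, the precursor of granulins, was at 1.99 at D32 and 0.731 at D44 in the same comparison, and MANBA, a mannosidase, at 1.415 at D23 and 0.759 at D32. Over neural-like cells GUSB, a glucuronidase, was at 1.605 at D23 and 0.781 at D32, and PSAP, the precursor of saposins, at 1.11 at D23 and 0.874 at D32. The D44 mesenchymal-like values of NPC2 and GRN come from 18 cells.

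Along pigment level, the ratio of the top over the bottom 20% of melanocyte-like cells was 1.18 for CTSB at D23, 0.906 at D32 and 0.423 at D44. For ATP6V0B it was 1.09 at D23 and 0.952 at D44.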

How the results depend on the processing

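No alternative turned the direction of a called member. Members that rose and fell over mesenchymal-like cells, main values 23 and 0, were 24 and 1 (ATP6AP2) with DESeq2, 25 and 2 (CTSL and ATP6V1G3) with no filter on low counts, 10 and 0 with no replicate block, 15 and 0 with clusters of each library (5.00% of all genes rose), 15 to 23 and 0 to 1 (CTSL) leaving out 1 library, and 19 to 25 and 0 under the rest. Over neural-like cells, main values 10 and 3, they were 16 and 3 with no filter, 5 and 1 with no replicate block, 10 and 2 with the gate limit at 2 times, 10 and 1 thinned to 5000 UMIs, 6 to 12 and 0 to 2 leaving out 1 library, 12 and 2 without the D44 mesenchymal-like cells, and 10 to 13 and 2 to 3 under the rest. Where a class was left with 1 sum, it was assumed to vary like the others. Of all genes, 11.4% rose and 15.2% fell over mesenchymal-like cells with DESeq2, and 5.93% and 8.69% with no filter. Over neural-like cells the shares were 11.5% and 16.3% with DESeq2, and 5.85% and 10.6% with no filter. With the gate limit at 2 times 8.68% and 8.52% of genes rose in the 2 comparisons, and thinned to 5000 UMIs 7.60% and 7.34%. Over neural-like cells 7.40% rose with clusters of each library. Other scalings, doublets or marker genes left out, or 10% background RNA taken off gave 7.57% to 9.63% of genes higher over mesenchymal-like cells. Over neural-like cells they gave 6.36% to 8.62%. Without the pairing by library, 13 of the 23 calls over mesenchymal-like and 7 of the 13 over neural-like cells were lost. Scaling to total UMIs moved the median log2 fold of all genes over neural-like cells to -0.07 from 0.09 and that of the members to 0.25 from 0.41. Counts at D44 over D32 stayed at 2 and 1. Members past 1.2-fold against pigment, main values 19, 16 and 24, were 9, 9 and 15 with cells split at the median in place of the outer 20%, a milder contrast by construction, and 15, 8 and 19 without PMEL in the pigment sum, where the cause was not tested. Depth limits the 18 D44 mesenchymal-like cells most.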
